A study of Homo sapiens with 4 samples.

Results

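The genes described here encode the heat shock proteins of the cytosol and mitochondria, the J proteins (DNAJ proteins) that work with them, the chaperonin ring CCT, and the heat shock factors HSF1 and HSF2. Members were taken by symbol from the protein-coding genes of the expression table, which gave 75 of the 32673 genes listed. They comprised 13 genes of the HSP70 and HSP110 family, 2 of HSP90, 41 J proteins, 5 small heat shock proteins, 3 genes of mitochondrial folding, 8 subunits of the CCT ring with the paralogue CCT6B, and both factors. RNA had been sequenced from TF1-BA cells, which are imatinib sensitive, and from TF1-BAR cells, which are imatinib resistant, with 2 libraries per line and 10000000 cells per library. Both lines are descendants of TF1, an erythroleukaemia line dependent on GM-CSF, into which BCR-ABL was introduced by a retrovirus. TF1-BAR cells arose from TF1-BA cells under prolonged imatinib and were kept in 2 uM of the drug, while both lines received GM-CSF. The TF1-BAR libraries also carry the title VECTOR, so resistance, exposure to the drug and any effect of a vector cannot be told apart. A single sensitive line was thus set against a single resistant line, and the labels do not say whether its 2 libraries came from separate cultures, so p-values measure only the spread between these libraries.

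Chaperones bind unfolded or partly folded proteins and release them in cycles of ATP hydrolysis. J proteins deliver substrates to HSP70 and start its ATP hydrolysis, HSP110 proteins exchange its nucleotide, and HSP90 takes over clients that are near their folded state, among them kinases such as BCR-ABL. HSF1 activates the inducible members when unfolded protein accumulates, by binding heat shock elements in their promoters.

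The library sizes recovered from the FPKM were 18042299 and 15465497 fragments in TF1-BA and 15761642 and 16074303 in TF1-BAR. Whether these sizes count all mapped fragments was not tested. Between 1.19% and 1.36% of the fragments fell in members. Markers of the line were present in every library. GATA1 (65.9 to 75.4 FPKM), CSF2RA and IL3RA were not called between the lines in the limma comparison, whereas CD34 (25.8 and 24.7 FPKM in TF1-BA, 53.9 and 61.2 in TF1-BAR), KIT (28.4 and 25.4, 58.7 and 59.3), CD33 (31.7 and 29.4, 54.2 and 58.5) and TAL1 (22 and 21.7, 34.4 and 40.6) were called higher in TF1-BAR. Of the markers of other cells, CD3E, COL1A2, KRT19 and EPCAM were at 0 to 0.103 FPKM, and COL1A1 was at 0.213 to 0.429 FPKM. CD79A (1.84 and 2.19 FPKM in TF1-BA, 3.55 and 3.15 in TF1-BAR) and CD3D (19.2 and 20.7, 5.74 and 6.36) also moved between the lines. The part of these markers in the results on chaperones was not tested.

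Lower expression in TF1-BAR was more frequent among the members than higher expression. FPKM is the number of fragments scaled to the length of the gene and to the mapped fragments of the library, and a member was tested when its mean over the 4 libraries was at least 0.5 FPKM, as in 63 of the 75. In the limma comparison of log2(FPKM + 0.5), 7 members were higher in TF1-BAR at an adjusted p under 0.05, which is 11.1% of those tested beside 16.3% of all 15519 genes tested. The number lower was 16, or 25.4%, beside 10.5% of all genes. Every member is protein-coding, and of the 11685 protein-coding genes tested 16.6% were higher and 12.5% lower. In bulk RNA, fewer cells with a transcript and less of it per cell cannot be told apart. A log2 fold change of at least 1 in size was reached by 1 of the called members, DNAJB5, which was lower, and by 0 that were higher. Over all genes 3.05% were called higher and 1.69% lower at both thresholds. The median log2 fold change was -0.07 over the members, 0.07 over all genes tested and 0.04 over the protein-coding genes tested. The log2(FPKM + 0.5) scale of these values understates changes of low genes. The libraries of the lines did not overlap for 12 members that were higher (19%, beside 40.9% of all genes tested) and 26 that were lower (41.3%, beside 28.4%), where 69.3% of all genes did not overlap in either direction. Of the 11685 protein-coding genes tested, 4765 were higher without overlap and 3790 lower.

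These calls rested on both replicates of TF1-BA, and the higher calls on TF1-BAR replicate 2 as well. Without TF1-BA replicate 1, limma called 0 members (5 higher and 15 lower at an unadjusted p under 0.05), and over all genes it called 85 higher and 59 lower. Without TF1-BA replicate 2 it also called 0 members (6 higher and 16 lower at an unadjusted p under 0.05), and over all genes 25 higher and 17 lower. Without TF1-BAR replicate 1, 4 members were called higher and 13 lower, and without TF1-BAR replicate 2 the numbers were 0 and 7 (6 and 15 at an unadjusted p under 0.05). With no filter on low values, when 30853 genes were tested, 2 members were called higher and 5 lower, beside 851 and 595 of all genes. Without the trend on mean level the members called were 3 and 10, beside 1928 and 1160 of all genes. The main comparison called 2537 of all genes higher and 1630 lower. Quantile normalization of the libraries gave 4 members higher and 17 lower, so that 19% of the called members were higher instead of 30.4%, and for all genes 51.3% instead of 60.9%. The median log2 fold change of the members was then -0.13, with that of all genes at -0.00. Without TF1-BAR replicate 1 the members' median was -0.12, and it was -0.02 when replicate 2 was left out instead.

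**Figure D1:**
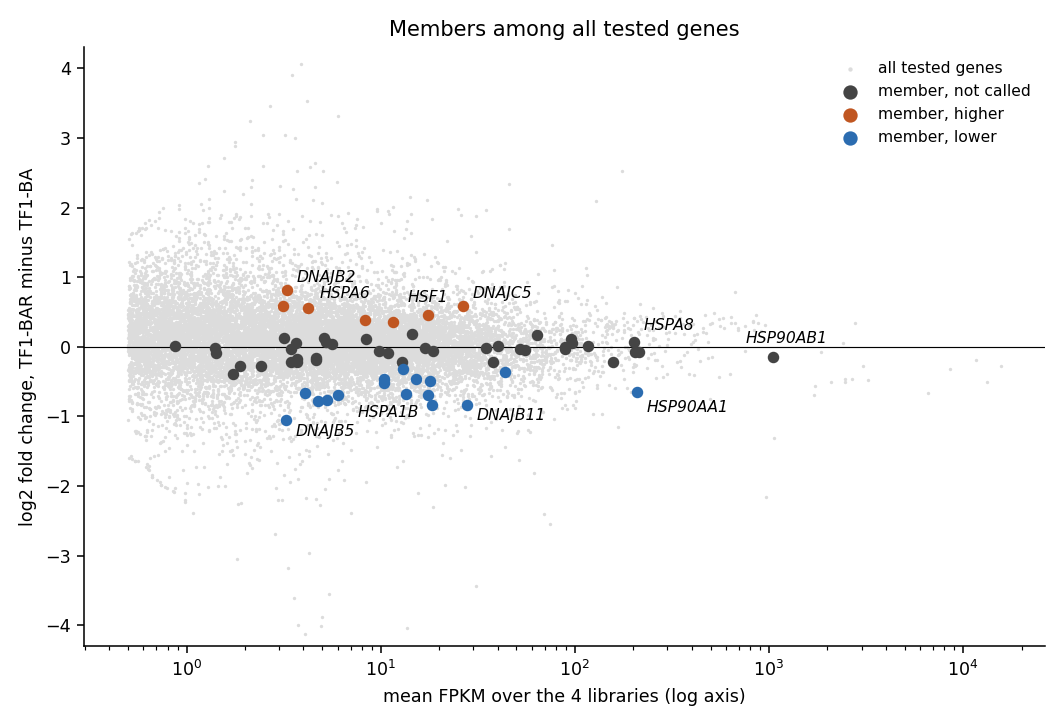
Log2 fold change (TF1-BAR minus TF1-BA, vertical axis) against the mean FPKM over the 4 libraries (horizontal log axis) for the 15519 tested genes, with the 63 tested members as larger points coloured by their call. DNAJB5 lies lowest among the members and DNAJB2 highest, and HSP90AB1, with the highest level, lies close to 0.

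Among the 18 members with a mean of at least 30 FPKM, limma called 0 higher (also 0 at an unadjusted p under 0.05 and 0 by limma voom) and 2 lower. These were HSP90AA1 and DNAJC6, the clathrin-uncoating J protein auxilin. Of all 1360 genes at that level, 21.8% were called higher and 19.5% lower. Under 30 FPKM, 7 of 45 tested members were called higher (15.6%, beside 15.8% of all 14159 genes tested at that level) and 14 lower (31.1%, beside 9.64%). Mean levels of the tested members ran from 0.871 FPKM for DNAJC30 to 1044 FPKM for HSP90AB1, which alone made up 31.7% to 32.6% of the summed FPKM of the members in each library. The summed FPKM of all members was 3420 and 3334 in TF1-BA and 3204 and 2990 in TF1-BAR.

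Of the heat shock factors, HSF1 rose in TF1-BAR. HSF1, the main activator of the heat shock response, had 13.9 and 15.4 FPKM in the TF1-BA libraries and 18.5 and 22 FPKM in the TF1-BAR libraries. Both TF1-BAR libraries lay above both TF1-BA libraries, with a log2 fold change of 0.45 (SE 0.11, limma adjusted p = 0.0407). Leaving out replicate 1 or 2 of TF1-BA or replicate 2 of TF1-BAR ended this call, with limma adjusted p of 0.21, 0.138 and 0.11, as did leaving out the trend (0.0735) or the filter (0.114). HSF2, a related factor that binds the same elements, had 17.4 and 16.5 FPKM in TF1-BA and 17.9 and 15.8 FPKM in TF1-BAR. Its groups overlapped, and the 95% confidence interval of its log2 fold change ran from -0.23 to 0.21 (limma adjusted p = 0.942).

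HSPA1A, HSPA1B, HSPA4L, HSPA13 and HSPA14 fell in TF1-BAR and HSPA6 rose, while the constitutive HSPA8 did not pass the test. Of 10 tested genes of the HSP70 and HSP110 family, limma called 5 lower (50%, beside 10.5% of all genes tested), 1 higher (10%, beside 16.3%) and 4 neither way, and their median log2 fold change was -0.29 beside 0.07 over all genes tested. HSPA1B (chr6:31827735-31830255, plus strand, GRCh38), the stress-inducible HSP70, had 22.1 and 25 FPKM in TF1-BA and 14.9 and 11.2 FPKM in TF1-BAR. Its neighbour HSPA1A (chr6:31815464-31817946, plus strand), which encodes an almost identical protein, had 5.63 and 6.61 FPKM in TF1-BA and 3.58 and 3.16 FPKM in TF1-BAR. For both genes the TF1-BA libraries lay above the TF1-BAR libraries without overlap. The log2 fold change was -0.83 for HSPA1B (SE 0.15, limma adjusted p = 0.0211) and -0.77 for HSPA1A (SE 0.12, limma adjusted p = 0.0132). Of the 32-base stretches in annotated HSPA1A transcripts, 75.8% also occur in HSPA1B, so the division of fragments between them is uncertain. Summed over the pair, the level was 27.7 and 31.6 FPKM in TF1-BA and 18.5 and 14.4 FPKM in TF1-BAR, and the mean of the sum fell by 44.5%.

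HSPA4L, an HSP110 protein that serves HSP70 as a nucleotide exchange factor, had 7.72 and 7.44 FPKM in TF1-BA and 4.67 and 4.36 FPKM in TF1-BAR. Its log2 fold change was -0.69 (SE 0.082, limma adjusted p = 0.00895), with replicates of each line close to each other. HSPA13, a microsomal HSP70 relative that lacks the substrate-binding part, had 16.3 and 17.2 FPKM in TF1-BA and 11.9 and 8.89 FPKM in TF1-BAR (log2 fold change -0.68, SE 0.14, limma adjusted p = 0.0297). HSPA14, which acts at the ribosome, was the other family member called lower.

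HSPA6 moved the other way. This HSP70 gene, known for its strict inducibility, had 3.23 and 3.35 FPKM in TF1-BA and 4.42 and 5.85 FPKM in TF1-BAR. The lines did not overlap, and the log2 fold change was 0.56 (SE 0.14, limma adjusted p = 0.0458). It rested on few fragments, between 123 and 223 per library. Of 14 settings, 8 kept the call of HSPA6, which ended with quantile normalization (limma adjusted p = 0.067), without the trend (0.0694), with no filter (0.131) and without TF1-BA replicate 1 or 2 or TF1-BAR replicate 2. The near-identical pseudogene HSPA7 shares 56.4% of the 32-base stretches of HSPA6 and had 5.61 and 5.54 FPKM in TF1-BA and 5.99 and 8.72 FPKM in TF1-BAR (limma adjusted p = 0.201), so the division of fragments between them is uncertain.

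The constitutive HSP70 of the cytosol, HSPA8, had 206 and 186 FPKM in TF1-BA and 226 and 187 FPKM in TF1-BAR. Its lines overlapped, and the interval of the log2 fold change was -0.21 to 0.35 (limma adjusted p = 0.666). HSPH1, the heat-inducible HSP110, had 10.6 and 9.53 FPKM in TF1-BA and 9.31 and 9.98 FPKM in TF1-BAR, with an interval of -0.29 to 0.17 (limma adjusted p = 0.659). The ratio of HSPA1B to HSPA8 was 0.107 and 0.134 in TF1-BA and 0.0663 and 0.0601 in TF1-BAR, lower in both resistant libraries. Without TF1-BA replicate 1 or 2, limma called 0 of the 6 genes of the family, with adjusted p from 0.0735 to 0.213, although all 6 kept their direction. Without TF1-BAR replicate 1 it called 5 of the 6, with HSPA14 at an adjusted p of 0.0669, and without TF1-BAR replicate 2 it called 1. Over the family limma called 0 higher and 1 lower with no filter, and 0 and 3 without the trend.

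**Figure D2:**
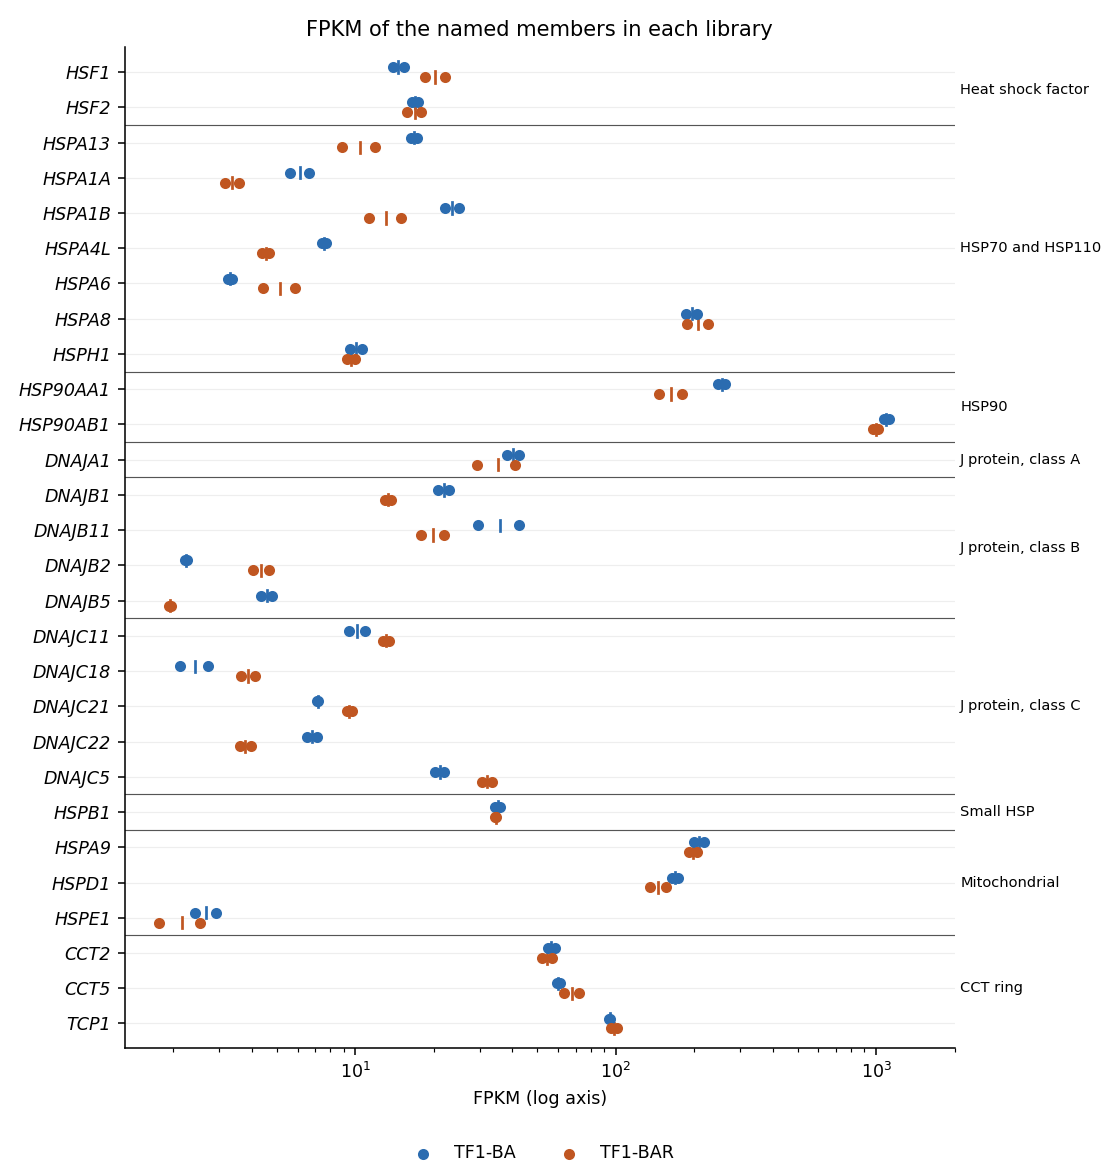
FPKM (horizontal log axis) of 28 members in the 2 TF1-BA and 2 TF1-BAR libraries, where points are libraries and short vertical lines the mean of each line, grouped by family. HSPA1A, HSPA1B, HSPA4L, HSP90AA1, DNAJB1 and DNAJB5 have both TF1-BAR points left of both TF1-BA points, whereas the points of HSPA8, HSPB1 and CCT2 overlap.

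Promoter sequences showed which members carry the heat shock element in its plainest form. The element is built from GAA units in alternating orientation, and the motif GAANNTTC, which reads the same on both strands, holds a pair of them. RefSeq promoters (GRCh38.p14) matched 66 of the 75 members, and the 250 bases before the RefSeq start were searched. This start can differ from the gene bounds of the expression table. At least 1 match to GAANNTTC was found in 11 of the 66 (16.7%) and in 5.85% of the 27305 promoters of the table. The pair in the other order, TTCNNGAA, was found in 6 of the 66 (9.09%), near the 6.72% of all promoters. A run of 3 alternating units on either strand, which contains GAANNTTC, occurred in 3 of the 66 (4.55%) and in 0.439% of all promoters. Of the members called lower with a promoter in the table, 2 of 13 held GAANNTTC, against 1 of 6 called higher and 5 of 37 not called. TTCNNGAA was held by 0 of the 13, 1 of the 6 and 3 of the 37. The GAANNTTC matches of the tested members are shown. These members include both genes of the HSPA1 pair, which fell, and HSPA6, which rose. The others, HSPA8, DNAJA1, DNAJB6, HSPB1 and TCP1, were not called. Capitals mark the units, and each line runs 5′ to 3′ on the strand of the gene.
HSPA1A: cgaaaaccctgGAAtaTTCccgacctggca
HSPA1B: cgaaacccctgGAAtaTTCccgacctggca
HSPA6: ccgatctgcccGAAccTTCtcccggggtca
HSPA6: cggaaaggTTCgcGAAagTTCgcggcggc
HSPA8: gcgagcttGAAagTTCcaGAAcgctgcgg
HSPA8: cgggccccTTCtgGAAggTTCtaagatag
DNAJB6: agagccgaGAAccTTCgcGAAggtggggc
DNAJA1: aaagggctccaGAAgaTTCcacgagcgccg
HSPB1: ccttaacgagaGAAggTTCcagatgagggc
TCP1: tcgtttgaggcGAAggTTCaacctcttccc

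The windows of HSPA1A (chr6:31815426-31815455, plus strand) and HSPA1B (chr6:31827622-31827651, plus strand) were identical at 29 of 30 bases. HSPA6 held a run of 3 units at chr1:161524458-161524486 on the plus strand, 62 to 74 bases before its start, and a further pair at chr1:161524349-161524378. HSPA8 held 2 runs of 3 units, at chr11:123062346-123062374 and chr11:123062171-123062199 on the minus strand, the nearer of them 43 to 55 bases before its RefSeq start. Both lie inside HSPA8 as bounded in the expression table (chr11:123057489-123063230). The third member with such a run was DNAJB6, at chr7:157336865-157336893 on the plus strand, also inside the bounds of its gene there (chr7:157335381-157417439). Pairs were found at chr9:33025064-33025093 (DNAJA1, plus strand), chr7:76302480-76302509 (HSPB1, plus strand) and chr6:159789815-159789844 (TCP1, minus strand). Of the 3 tested members with a run of 3 units, 1 rose and 2 were not called, and 0 fell. A match describes only the letters of the window and says nothing of binding in these cells.

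HSP90AA1 fell in TF1-BAR, and HSP90AB1 did not pass the test. HSP90AA1 (chr14:102080738-102139699, minus strand), the inducible HSP90, had 262 and 247 FPKM in TF1-BA and 180 and 146 FPKM in TF1-BAR. The libraries of the lines were clearly apart, with a log2 fold change of -0.65 (SE 0.11, limma adjusted p = 0.0185). The constitutive HSP90AB1 (chr6:44246166-44253888, plus strand) had 1116 and 1072 FPKM in TF1-BA and 1017 and 970.1 FPKM in TF1-BAR, with an interval of the log2 fold change from -0.28 to 0.00 (limma adjusted p = 0.126). The ratio of HSP90AA1 to HSP90AB1 was 0.235 and 0.23 in TF1-BA and 0.177 and 0.15 in TF1-BAR, so the inducible form made up a smaller part of the HSP90 transcripts in both TF1-BAR libraries. Pseudogenes share sequence with both genes, since 25.5% of the 32-base stretches of HSP90AA1 and 34.4% of those of HSP90AB1 occur elsewhere among annotated transcripts. Without TF1-BA replicate 1 or 2 the limma adjusted p of HSP90AA1 was 0.122 or 0.102, and it stayed under 0.05 without either TF1-BAR library, while with no filter it was 0.0775.

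Class B of the J proteins held both the largest fall and the largest rise among the members. J proteins are divided by their resemblance to bacterial DnaJ, class A being the most alike, class B sharing the J domain and the region after it, and class C the J domain only. Of 8 class B members tested, limma called 4 lower (50%, beside 10.5% of all genes) and 1 higher (12.5%, beside 16.3%), with a median log2 fold change of -0.44 beside 0.07 over all genes, whereas of 3 class A members it called 0 in either direction (also 0 at an unadjusted p under 0.05, and 0 by limma voom). DNAJB5 (chr9:34989641-34998900, plus strand), a cytosolic relative of DNAJB1, had 4.33 and 4.8 FPKM in TF1-BA and 1.92 and 1.96 FPKM in TF1-BAR. Its mean fell by 57.5% and its log2 fold change was -1.05 (SE 0.099, limma adjusted p = 0.00603). With a pseudocount of 1 FPKM the fold change of DNAJB5 was under the size threshold, so that 0 members passed both thresholds. DNAJB1 (chr19:14514770-14529770, minus strand), the main inducible partner of HSP70, had 20.8 and 22.9 FPKM in TF1-BA and 13.8 and 13 FPKM in TF1-BAR (log2 fold change -0.69, SE 0.079, limma adjusted p = 0.00863).

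DNAJB11, which serves the HSP70 of the endoplasmic reticulum, had 29.7 and 42.4 FPKM in TF1-BA and 21.9 and 17.8 FPKM in TF1-BAR. The lines did not overlap, but the TF1-BA libraries lay far from each other, and the log2 fold change was -0.83 (SE 0.19, limma adjusted p = 0.0367). Of 14 settings, 7 kept this call. DNAJB4, another cytosolic relative of DNAJB1, was the remaining class B member called lower. DNAJB2, which carries ubiquitin-interacting motifs and is best known from neurons, was the member with the largest rise. It had 2.22 and 2.25 FPKM in TF1-BA and 4.04 and 4.66 FPKM in TF1-BAR, a log2 fold change of 0.82 (SE 0.11, limma adjusted p = 0.0102). DNAJA1, the farnesylated class A partner of HSP70, had 42.6 and 38.3 FPKM in TF1-BA and 41 and 29.4 FPKM in TF1-BAR. The first TF1-BAR library lay among the TF1-BA libraries and the second below them, and the interval of the log2 fold change was -0.65 to 0.22 (limma adjusted p = 0.379). Without TF1-BA replicate 1 or 2, limma called 0 of the 5 class B genes, with adjusted p from 0.0589 to 0.164. Without TF1-BAR replicate 1 it called 4 and without TF1-BAR replicate 2 it called 1, and all 5 kept their direction in each case.

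**Figure D3:**
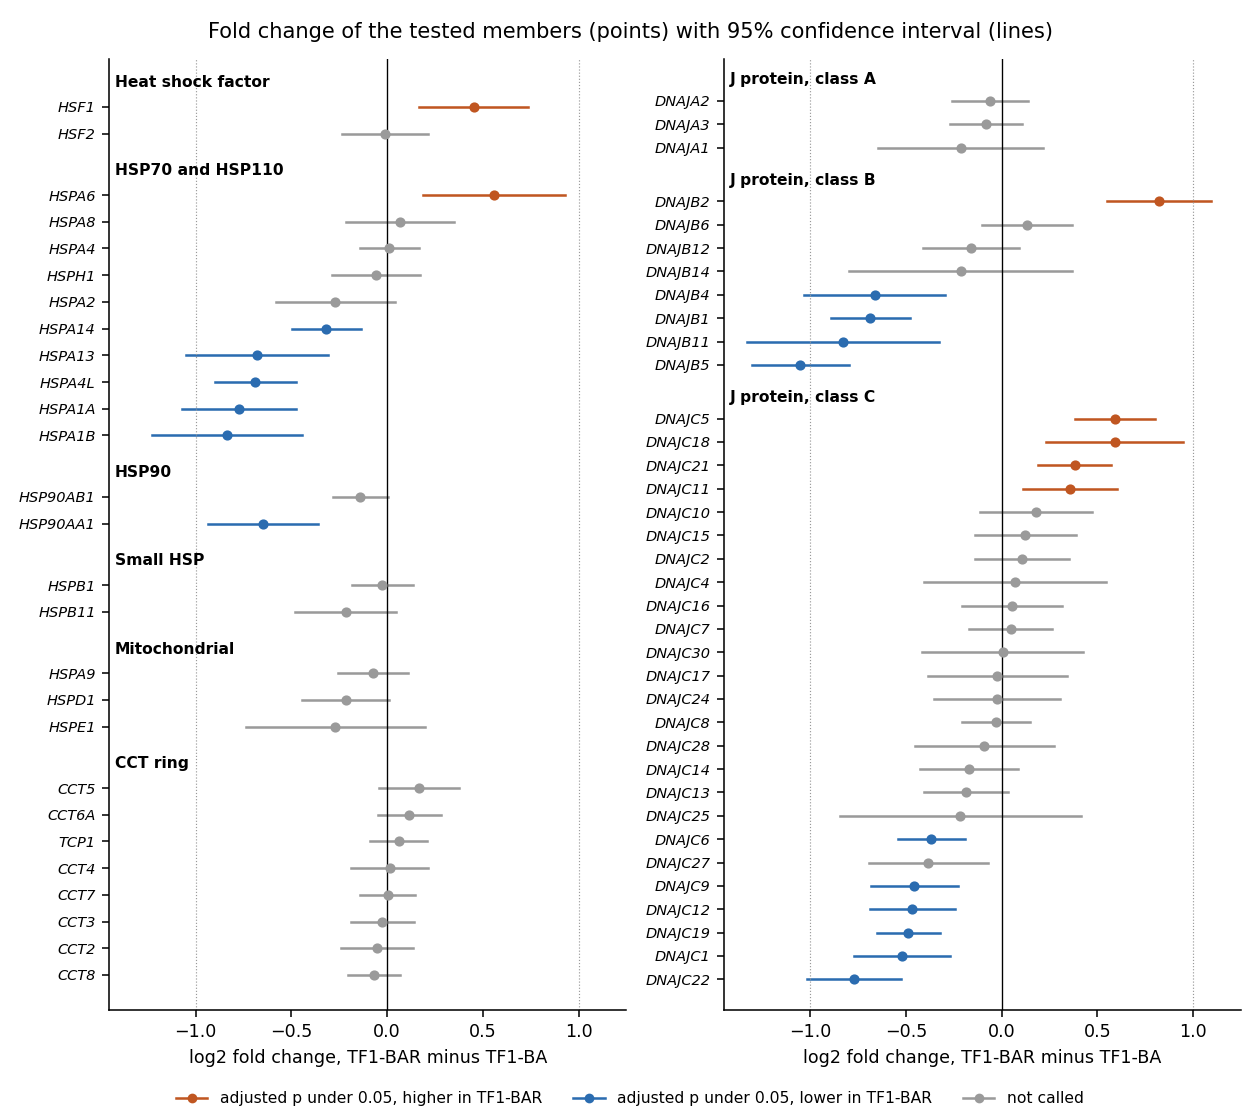
Log2 fold change (TF1-BAR minus TF1-BA, horizontal axis) of the 63 tested members, with points for estimates and lines for 95% confidence intervals from limma, grouped by family and coloured by call. Dotted lines mark a change of 1 in either direction, which DNAJB5 alone passed, and the 8 CCT subunits lie around 0.

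Class C, the most diverse class, held members that rose and members that fell. Of 25 tested, limma called 4 higher (16%, beside 16.3% of all genes) and 6 lower (24%, beside 10.5%), and the median log2 fold change was -0.02. This median was near 0 and turned to 0.04 without TF1-BAR replicate 2, and it was -0.13 without TF1-BAR replicate 1, -0.07 without TF1-BA replicate 2 and -0.15 with quantile normalization. DNAJC5, the cysteine string protein of secretory vesicles, had 20.3 and 21.9 FPKM in TF1-BA and 30.5 and 33.5 FPKM in TF1-BAR (log2 fold change 0.59, SE 0.081, limma adjusted p = 0.0114). DNAJC18, a membrane J protein of the endoplasmic reticulum, had 2.12 and 2.72 FPKM in TF1-BA and 3.63 and 4.11 FPKM in TF1-BAR (log2 fold change 0.59, SE 0.14, limma adjusted p = 0.0373). DNAJC21, which takes part in the maturation of the large ribosomal subunit, had 7.13 and 7.19 FPKM in TF1-BA and 9.71 and 9.25 FPKM in TF1-BAR (log2 fold change 0.38, SE 0.074, limma adjusted p = 0.0243). In each of these genes both TF1-BAR libraries exceeded both TF1-BA libraries. DNAJC11, associated with the cristae of mitochondria, had 10.9 and 9.44 FPKM in TF1-BA and 12.7 and 13.5 FPKM in TF1-BAR. It lay at the edge of the threshold (log2 fold change 0.36, SE 0.095, limma adjusted p = 0.0499), and of 14 settings 4 kept it under 0.05. DNAJC18 was kept by 7 of 14, and its call ended with quantile normalization (limma adjusted p = 0.0547), without the trend (0.0562), with no filter (0.113) and with each library left out (0.0824 to 0.182). DNAJC21 was kept by 9 of 14 and DNAJC5 by 11.

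DNAJC22 fell most in class C. This membrane-spanning J protein had 6.49 and 7.09 FPKM in TF1-BA and 3.59 and 3.96 FPKM in TF1-BAR (log2 fold change -0.77, SE 0.095, limma adjusted p = 0.00954). The other class C genes called lower were DNAJC1 of the endoplasmic reticulum membrane, DNAJC6, the histone chaperone DNAJC9, DNAJC12, a partner of aromatic amino acid hydroxylases, and DNAJC19 of the mitochondrial import motor. For DNAJC9, 56.5% of the exon bases lie within exons of FAM149B1 on the opposite strand, and the strand setting of the counting is not given in the sources used here. By compartment, 1 of 7 mitochondrial J proteins was higher and 1 lower (14.3% each way), and of 8 J proteins of the endoplasmic reticulum 1 was higher (12.5%) and 2 were lower (25%). These counts rest on few genes and stand beside 16.3% higher and 10.5% lower over all genes. Leaving out TF1-BA replicate 1 or 2 ended all 10 class C calls (limma adjusted p from 0.0746 to 0.253), without TF1-BAR replicate 1 limma called 5 of the 10, and without TF1-BAR replicate 2 it called 4.

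No gene of mitochondrial folding was called. Limma called 0 of HSPA9, HSPD1 and HSPE1 (0 also at an unadjusted p under 0.05), beside 16.3% of all genes higher and 10.5% lower. Limma voom called 1, HSPD1. HSPD1, the mitochondrial HSP60, had 174 and 164 FPKM in TF1-BA and 156 and 135 FPKM in TF1-BAR. The lines did not overlap, and the interval of the log2 fold change was -0.44 to 0.01 (limma adjusted p = 0.129, 0.0487 without TF1-BAR replicate 1 and 0.0466 with limma voom). HSPA9, the mitochondrial HSP70, had 200.1 and 217 FPKM in TF1-BA and 206 and 191 FPKM in TF1-BAR, with an interval of -0.25 to 0.11 (limma adjusted p = 0.486). HSPE1, the lid of HSP60, had 2.92 and 2.42 FPKM in TF1-BA and 2.54 and 1.76 FPKM in TF1-BAR, with an interval of -0.73 to 0.20 (limma adjusted p = 0.312). The ratio of HSPE1 to HSPD1 was 0.013 to 0.0168 in the 4 libraries. HSPE1 shares exons with the readthrough gene HSPE1-MOB4, and its low level rested on 56 to 104 fragments per library.

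Small heat shock proteins hold unfolded proteins without ATP. Of 5 members placed here by symbol, HSPB1 and HSPB11 were tested. Limma and limma voom called 0 of them (0 at an unadjusted p under 0.05), where limma called 16.3% of all genes higher and 10.5% lower. HSPB1, known as HSP27, had 34.4 and 36 FPKM in TF1-BA and 34.8 and 34.5 FPKM in TF1-BAR. Its libraries overlapped within a narrow range, and the interval of the log2 fold change was -0.18 to 0.14 (limma adjusted p = 0.797).

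The CCT ring, which folds actin and tubulin, had no subunit that was called. Limma called 0 of its 8 subunits (0 at an unadjusted p under 0.05, and 0 by limma voom). Of all genes with a mean of at least 30 FPKM, it called 21.8% higher and 19.5% lower. The log2 fold changes of the subunits ran from -0.07 to 0.17, and their median was 0.01 (-0.03 to 0.03 with 1 library left out). Mean levels ran from 55.5 FPKM for CCT2 to 213 FPKM for CCT8. TCP1, the alpha subunit, had 95 and 94.1 FPKM in TF1-BA and 96.2 and 101 FPKM in TF1-BAR (interval -0.09 to 0.21, limma adjusted p = 0.468). CCT2 had 58.3 and 54.7 FPKM in TF1-BA and 56.9 and 52.1 FPKM in TF1-BAR (interval -0.24 to 0.14, limma adjusted p = 0.627). CCT5 came closest to the threshold, with 60.9 and 59.6 FPKM in TF1-BA and 72.3 and 63.4 FPKM in TF1-BAR (interval -0.04 to 0.38, limma adjusted p = 0.184). Summed over the ring, FPKM was 829 and 805 in TF1-BA and 842 and 806 in TF1-BAR, and these sums overlapped between the lines.

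Genes known from textbooks as heat-inducible targets of HSF1 were lower more often than higher. Of 18 such genes, 13 of them members, limma called 7 lower, 1 higher and 10 neither way, or 38.9% lower beside 10.5% of all genes tested. Their median log2 fold change was -0.24, with -0.41 when TF1-BAR replicate 1 was left out and -0.11 when replicate 2 was. The 7 were HSPA1A, HSPA1B, HSPA4L, HSP90AA1, DNAJB1, the HSP70 exchange factor BAG3 and STIP1, the adaptor between HSP70 and HSP90. HSF1 itself rose, as did HSPA6, the only listed gene called higher. The largest fall was that of BAG3, which had 18.3 and 19.4 FPKM in TF1-BA and 4.87 and 5.82 FPKM in TF1-BAR (log2 fold change -1.73, SE 0.1, limma adjusted p = 0.00337). Without TF1-BA replicate 1 limma called 1 gene of the list lower, and without TF1-BA replicate 2 it called 0 (7 at an unadjusted p under 0.05). Without TF1-BAR replicate 1 it called 8 lower, without TF1-BAR replicate 2 it called 3, and with no filter it called 3.

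**Figure D4:**
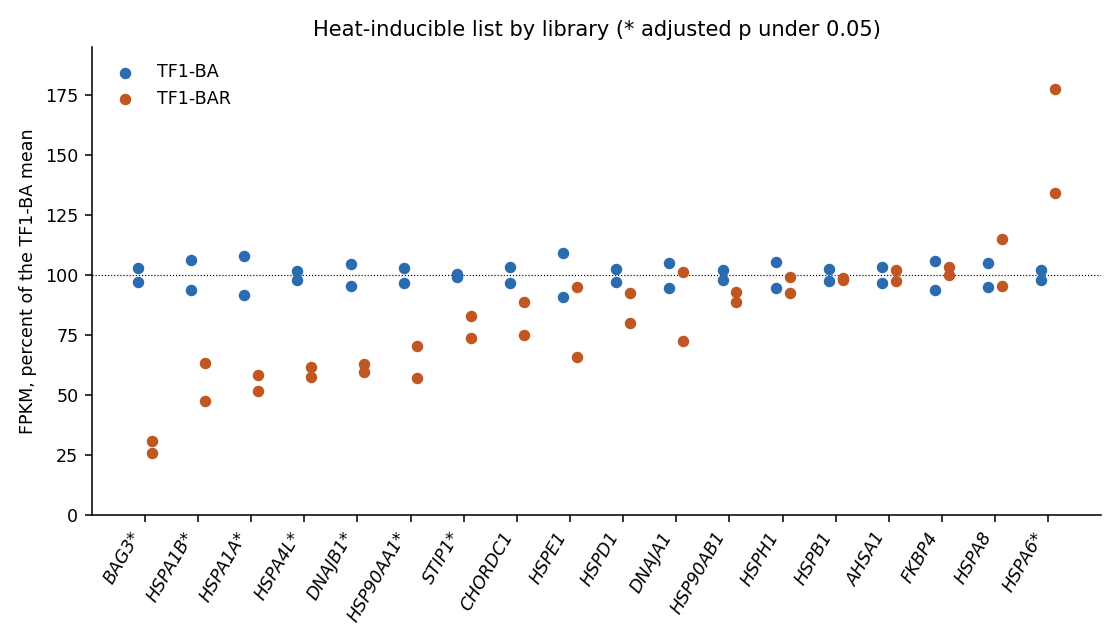
FPKM of the 18 heat-inducible genes in each library as a percentage of the mean of the TF1-BA libraries (vertical axis from 0), ordered by fold change, with an asterisk for an adjusted p under 0.05. The TF1-BAR points of BAG3, HSPA1B, HSPA1A, HSPA4L, DNAJB1, HSP90AA1 and STIP1 lie below those of TF1-BA, those of HSPA6 lie above, and AHSA1, FKBP4 and HSPA8 overlap.

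Among the tested cofactors of the chaperones, BAG3 and BAG2 had the largest falls and HSF4 the largest rise. Of 49 listed, 46 were tested, and limma called 3 higher (6.52%, beside 16.3% of all genes) and 6 lower (13%, near the 10.5% of all genes), with a median log2 fold change of -0.08 (-0.03 without TF1-BAR replicate 2). Limma voom called 5 higher and 10 lower. By function, 3 of 12 HSP70 cofactors were lower and 1 higher, 1 of 14 HSP90 cofactors was lower and 1 higher, and 1 of 12 genes of prefoldin and CCT assembly was lower. BAG2, an exchange factor that inhibits the ubiquitin ligase of HSP70, had 9.33 and 9.09 FPKM in TF1-BA and 5.64 and 4.66 FPKM in TF1-BAR (log2 fold change -0.79, SE 0.11, limma adjusted p = 0.0115). TXNDC9, a cofactor of CCT, had 10.6 and 11.1 FPKM in TF1-BA and 8.18 and 5.96 FPKM in TF1-BAR (log2 fold change -0.60, SE 0.15, limma adjusted p = 0.0463). With BAG3 these were the largest falls among the tested cofactors.

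BAG1, a further exchange factor of HSP70, rose from 3.3 and 3.13 FPKM in TF1-BA to 4.4 and 4.64 FPKM in TF1-BAR (log2 fold change 0.44, SE 0.088, limma adjusted p = 0.0266). HSF4, a factor best known from the lens, had 2.02 and 2.62 FPKM in TF1-BA and 3.46 and 3.68 FPKM in TF1-BAR (log2 fold change 0.54, SE 0.14, limma adjusted p = 0.0444). CDC37, which brings kinases to HSP90, had 91.6 and 94.5 FPKM in TF1-BA and 109 and 108 FPKM in TF1-BAR (log2 fold change 0.22, SE 0.055, limma adjusted p = 0.0431). In these genes the lines did not overlap. With no filter limma called 0 cofactors higher and 1 lower, without the trend 1 and 4, and with upper quartile scaling 1 and 7. Among the 6 prefoldin subunits, which hand actin and tubulin to CCT, limma and limma voom called 0 (1 higher and 1 lower at an unadjusted p under 0.05 in limma), although without TF1-BAR replicate 1 limma called VBP1 lower (adjusted p = 0.0408, 0.501 with all libraries). Without TF1-BA replicate 1 limma called 0 cofactors higher and 1 lower, without TF1-BA replicate 2 it called 0 and 0 (2 higher and 5 lower at an unadjusted p under 0.05), without TF1-BAR replicate 1 it called 0 and 9, and without TF1-BAR replicate 2 it called 0 and 2.

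Members on chromosomes 10 and 20 lay on the same side of 0 as the median of the other genes there. On chromosome 10, limma called HSPA14, DNAJC1, DNAJC12 and DNAJC9 lower, and DNAJB12 had TF1-BAR libraries below the TF1-BA libraries without being called. The median log2 fold change of these 5 was -0.46, beside -0.34 over the other 588 tested genes of the chromosome, of which 44.2% were called lower. BAG3 lies on the same chromosome. DNAJC5 lies on chromosome 20, where the median of 439 other genes was 0.39 and 46.7% of them were called higher. On each other chromosome with a tested member the median of the other genes lay between -0.01 and 0.12. Among the 58 members tested outside chromosome 10, 7 were called higher (12.1%) and 12 lower (20.7%), beside 16.8% and 9.15% of all 14926 genes tested outside it. Limma called 0 of the chromosome 10 members without TF1-BA replicate 1 or 2 or with no filter (3 or 4 at an unadjusted p under 0.05), and without TF1-BAR replicate 1 or 2, or without the trend, it called 2. Whether these members changed apart from their chromosome was not tested.

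**Figure D5:**
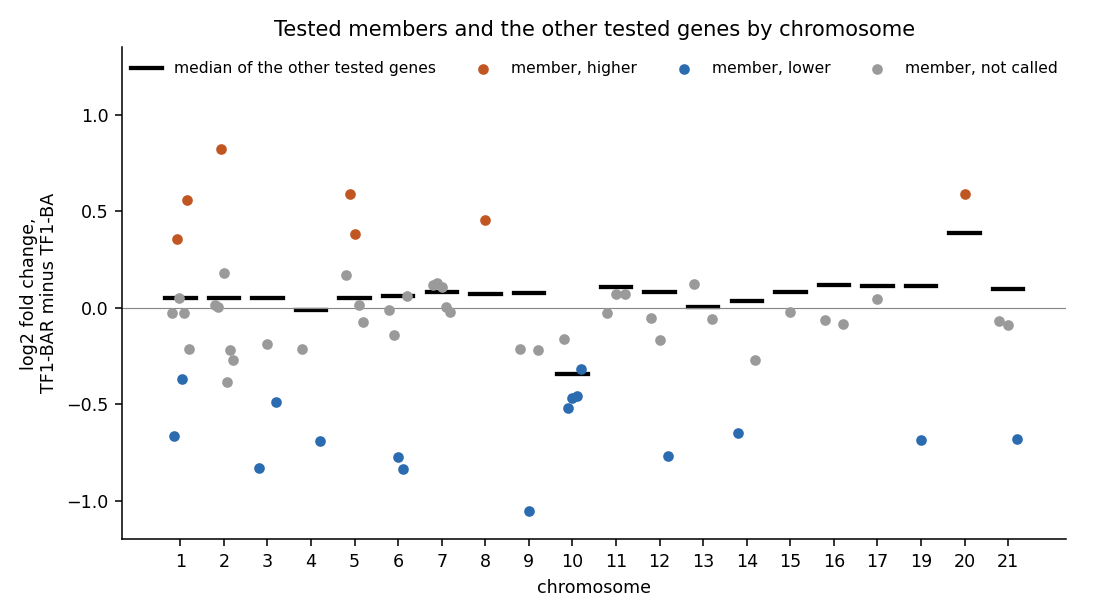
Log2 fold change (TF1-BAR minus TF1-BA, vertical axis) of the tested members by chromosome, as points coloured by call, with black bars for the median of the other tested genes of that chromosome. The bar of chromosome 10 lies at -0.34 with its 5 members below 0, and that of chromosome 20 at 0.39 with DNAJC5 above it.

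The 12 members under the filter reached at most 0.671 FPKM in a library. HSPA12B, an HSP70 relative of endothelium, had the highest of these values, with 0.246 to 0.671 FPKM. HSPA1L, which lies head to head with HSPA1A, had 0.349 and 0.585 FPKM in TF1-BA and 0.274 and 0.196 FPKM in TF1-BAR. CCT6B, the testis paralogue of CCT6A, had 0.388 to 0.512 FPKM, and DNAJB13, a J protein of sperm and cilia, 0.223 to 0.537 FPKM. HSPB6 and HSPB9 lay between 0.101 and 0.376 FPKM, DNAJA4 reached 0.151 FPKM and DNAJC5G 0.135 FPKM, and HSPA12A, DNAJB7, DNAJC5B and HSPB7 stayed at or under 0.0645 FPKM. With no filter on low values limma called 0 of the 12 (adjusted p from 0.186 to 0.965), and DNAJA4 alone, with 8 and 5 fragments in TF1-BA and 14 and 16 in TF1-BAR, had an unadjusted p under 0.05.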

How the data were processed

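RNA of TF1-BA and TF1-BAR cells (2 libraries each) was sequenced as paired-end reads. The authors describe removing adaptors and poor-quality reads and mapping to GRCh38 with TopHat2 2.0.13. They name Cufflinks and Cuffdiff 2.2.0 for the later steps, and whether these gave the deposited FPKM was not tested. The deposited FPKM, neither pooled nor log transformed, were the only values used. The annotation release and strand setting are not given in the sources used here. Fragments were recovered as whole numbers that gave the FPKM of a gene in all libraries (tolerance 0.001 fragments), and where the length was fitted, a whole multiple of them would do so too. They cover counting error only. The exon length of GENCODE 44 gave whole numbers for 14220 of the 30853 genes above 0 (11 of the 75 members), and for the other 16633 (64 members) the length was fitted to make them whole.

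Groups and replicate numbers came from the sample labels. The lines were compared on log2(FPKM + 0.5) over 15519 genes with a mean of at least 0.5 FPKM, using lmFit and eBayes (trend on mean level, two-sided) of limma 3.58.1, run under R 4.3.3, with Benjamini-Hochberg adjustment over all of these genes. A gene was called at an adjusted p under 0.05. An exact permutation test of 2 libraries against 2 cannot give a p under 0.333 and was not used. The replicates differed by more than counting noise (chi-square per degree of freedom 3.94 in TF1-BA and 6.42 in TF1-BAR) and were kept as separate samples.

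Members, gene lists and tests were chosen with earlier results of these data known. Values are given for a fixed set of core members, each member past both thresholds, the 8 largest called changes in each direction and, among cofactors, those past both thresholds and the 3 largest in each direction. STIP1, HSPA7 and VBP1 were named after their values were seen. Of the cofactors, CRYAB and TTC4 lay under the filter and HSF5 was not analysed here. 1 marker of other cells is not reported here. Promoters came from RefSeq (GRCh38.p14); those of CCT6A, DNAJC1, DNAJC22, DNAJC24, DNAJC5B, HSF1, HSPA12B, HSPA14 and HSPB11 were not matched. Sequence shared between transcripts and overlapping exons were read from GENCODE 44. Other settings tried were pseudocounts of 1 and 0.1 FPKM, a filter at a mean of 1 FPKM and none, quantile and upper quartile scaling, eBayes without the trend, the replicate number as a block, each library left out and, chosen after seeing the data, limma voom on the recovered fragments.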

Additional observations from a re-analysis of the deposited data

How the results depend on the processing

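The comparison rests on 2 libraries per line, which limits its precision. Against 7 members higher, 16 lower and 1 past both thresholds, leaving out 1 library gave 0 to 4 higher, 0 to 13 lower and 0 to 2 past both, and against 3 cofactors higher and 6 lower it gave 0 to 0 and 0 to 9. A lone library was then assumed to vary like the other line. With no filter on low values, 2 members were higher and 5 lower, and 0 cofactors higher and 1 lower, when 30853 genes were tested. Without the trend, 3 members were higher, 10 lower and 1 cofactor higher. Calls over all genes fell as well, from 2537 higher and 1630 lower to 851 and 595 with no filter. Without the trend they fell to 1928 and 1160. Quantile normalization left 4 members higher, upper quartile scaling 1 cofactor higher, and a pseudocount of 1 FPKM 0 members past both thresholds. Limma voom on recovered fragments gave 5 cofactors higher and 10 lower. The cause of these shifts was not tested. Among the members named, 283 values kept their direction and side of the threshold, 71 lost the call, 2 gained it (both HSPD1) and 8 turned direction when 1 library was left out, all of genes not called.

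Leave-one-out log2 fold changes ran from -0.131 to 0.0162 for HSPH1, -0.0962 to 0.0762 for HSF2, -0.0654 to 0.204 for HSPA8, -0.0583 to 0.00999 for HSPB1, -0.45 to 0.0211 for DNAJA1 and -0.115 to 0.00999 for CCT2. The replicate numbers did not pair the libraries (correlation of the deviations of same-numbered libraries 0.0646 over genes). With the replicate number as a block, 6 members were higher and 15 lower, and DNAJC11 (limma adjusted p = 0.0687) and DNAJB11 (0.0581) lost their call, as did the cofactors CDC37 (0.0544) and TXNDC9 (0.0526). The cofactor counts stayed at 3 higher and 6 lower, so other cofactors gained a call in each direction.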
